A study of Homo sapiens with 12 samples.

Results

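The genes described here are 10 through which a tubular cell can sense or carry short-chain fatty acids (SCFAs): the receptors FFAR2, FFAR3 and HCAR2, the proton-coupled monocarboxylate transporters SLC16A1, SLC16A3 and SLC16A7, the sodium-coupled transporters SLC5A8 and SLC5A12, and the accessory proteins BSG and EMB. They were picked by gene symbol from the 58278 genes listed for each library, and all 10 were found. HK2, an immortalized human line derived from proximal tubule epithelium, was sequenced in 12 libraries, as 6 groups of 2 biological replicates. Ctrl cells received nothing. TN cells received 5 ng/mL of TNF-α, an inflammatory cytokine, over 3 h. All other groups received that TNF-α too, and in addition an SCFA during 24 h: 15 mM of propionate before TNF-α in PRTN and after it in TNPR, or 3 mM of butyrate before it in BUTN and after it in TNBU. No group received an SCFA without TNF-α, and the 2 SCFAs were used at different doses. Going by these labels, the 24 h with SCFA lay between TNF-α and collection in TNPR and TNBU. No group with TNF-α alone was kept for that longer time. In comparisons of TNPR or TNBU with TN, PRTN or BUTN, time since TNF-α and the SCFA or its order cannot be told apart. The general treatment label names thapsigargin and JQ1, whereas the labels of the single libraries name TNF-α and the SCFAs, and the latter were used.

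Propionate and butyrate are mostly anions at the pH of blood and culture medium, a form that crosses membranes on carriers. For colonocytes, the paper names passive diffusion as a route beside active transporters. The SLC16A carriers (MCT1, MCT4 and MCT2 for SLC16A1, SLC16A3 and SLC16A7) move lactate, pyruvate, ketone bodies and SCFAs together with a proton, in the direction that the gradients set. SLC5A8 and SLC5A12 pull the same anions in with sodium and work in the brush border of the proximal tubule, where filtered lactate is recovered. MCT1 and MCT4 reach the cell surface with basigin, the glycoprotein encoded by BSG, and MCT2 with embigin, encoded by EMB. FFAR2 (GPR43), FFAR3 (GPR41) and HCAR2 (GPR109A) are G protein-coupled receptors. FFAR2 and FFAR3 bind acetate, propionate and butyrate, and HCAR2 binds butyrate, ketone bodies and niacin.

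Of the 5 genes above 1 CPM, BSG alone was called in the limma-voom fit (over 1.5-fold, adjusted p under 0.05): its level rose 1.73- to 2.0-fold in all 4 SCFA groups, while neither SLC16A1 nor SLC16A3 passed a 1.5-fold change in any comparison. EMB had lower values in TNPR, TNBU and PRTN, with adjusted p under 0.05 but under 1.5-fold. It passed 1.5-fold in TNPR under some alternatives, whereas with library size alone only the TNPR difference kept an adjusted p under 0.05. The 3 receptors and both sodium-coupled transporters stood near the count floor in every group. HCAR2 had 0 counts in all Ctrl and TN libraries and at most 8 in the SCFA libraries.

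Among the 10 genes, 5 had a group mean of at least 1 CPM (counts scaled to library size with TMM factors), and 5 had none. The expected counts summed to between 27269986 and 33851130 per library, so that 3 counts, taken as the upper limit that a count of 0 allows, corresponded to 0.0867 to 0.112 CPM. These limits cover counting error only. The filter on low counts kept 7 of the 10 genes among 24342 tested genes and dropped FFAR3, SLC5A8 and SLC5A12. HCAR2 passed this filter only through the SCFA groups.

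**Figure D1:**
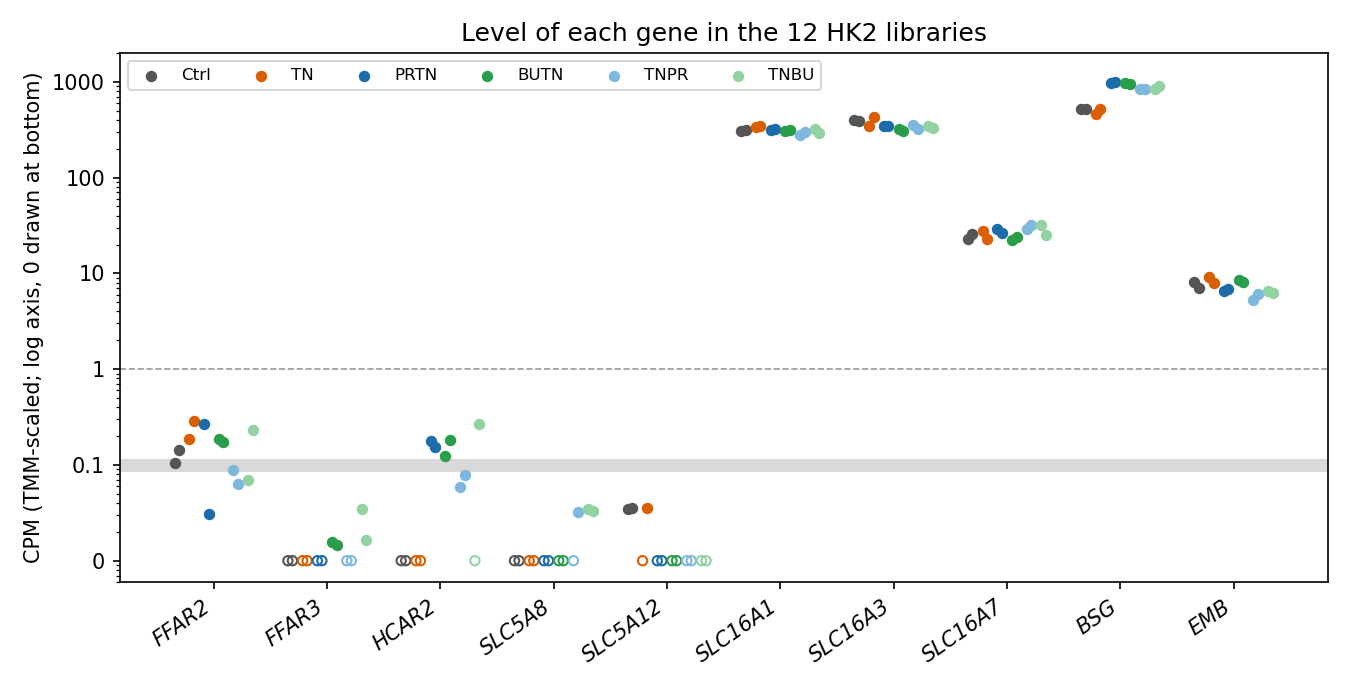
TMM-scaled CPM of the 10 genes (log axis) in the 12 libraries, coloured by group, with open circles for counts of 0, a grey band for the CPM that 3 counts give (0.0867 to 0.112) and a dashed line at 1 CPM. SLC16A1, SLC16A3, SLC16A7, BSG and EMB lie above 1 CPM in every library, and the other 5 genes lie below it in every library.

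Near-identical copies bear on 2 of the receptors, because RSEM divides reads that match several genes. FFAR3 and its neighbour GPR42 differ at 6 of 1038 coding bases (99.4% identity), and 79.4% of the 50-base windows of the FFAR3 coding sequence occur unchanged in GPR42. HCAR2 and HCAR3 differ at 28 of 1089 aligned coding bases (97.4% identity), and 39.8% of the 50-base windows of HCAR2 occur unchanged in HCAR3. A window of 40 coding bases is shown for FFAR3 and GPR42, from the GRCh38 reference and not from the reads, to make visible how few letters tell the copies apart. The capital marks the base at which the 2 genes differ. The FFAR3 window lies at chr19:35359386-35359425 and the GPR42 window at chr19:35371855-35371894, both on the plus strand.
FFAR3: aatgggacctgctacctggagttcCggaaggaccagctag
GPR42: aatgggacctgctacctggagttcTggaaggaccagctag

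FFAR3 (ENSG00000185897.6, chr19:35358460-35360489, plus strand) was at 0 in 8 of 12 libraries. It had 0.5 counts in both BUTN libraries, and 1 and 0.5 in TNBU. GPR42 also had 0.5 counts in each BUTN library, and 0 and 0.5 in TNBU. Neither gene exceeded the floor in any library.

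FFAR2 (ENSG00000126262.4, chr19:35443907-35451767, plus strand) was the only receptor with a count in all 12 libraries. It had 3.05 and 4.02 counts in Ctrl, 5.05 and 8.02 in TN, 9.15 and 1 in PRTN, and 6.02 and 6.01 in BUTN. TNPR had 3.01 and 2 counts, and TNBU 2 and 7. The PRTN replicates alone spanned the range of all 12 libraries, and the TNPR libraries lay below both TN libraries. FFAR2 was not called in any of the 7 comparisons. The 95% interval of its log2 fold change ran from -2.76 to 0.49 in PRTN vs TN and from -1.82 to 1.09 in BUTN vs TN, so that no difference was detectable at this depth and a several-fold fall was within the interval.

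HCAR2 (ENSG00000182782.7, chr12:122701293-122703357, minus strand) was at 0 in both Ctrl and both TN libraries. The propionate groups had 6.16 and 5 counts (PRTN) and 2 and 2.45 counts (TNPR). The butyrate groups had 3.97 and 6.37 counts (BUTN) and 0 and 8 counts (TNBU). All PRTN and BUTN libraries were thus above 3 counts, both TNPR libraries were below, and the TNBU replicates lay at opposite ends. Because its SCFA counts alone admitted HCAR2 to the test, the following calls describe those counts and do not support a difference by themselves. The limma-voom fit called HCAR2 up in PRTN vs TN (adjusted p = 0.0143) and BUTN vs TN (adjusted p = 0.0181), but not in TNPR vs TN (adjusted p = 0.110) or TNBU vs TN (adjusted p = 0.161). TN had 0 counts, for which the floor of 3 counts per library stands. The PRTN mean was 1.51 times that floor and the BUTN mean 1.41 times. Both ratios leave out the counting error of the SCFA counts, so neither bounds a difference from below. No ratio is given for TNBU, where 1 of the 2 libraries was at 0. The TNPR mean of 0.0688 CPM lay under that floor.

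The HCAR2 calls rested on few reads. DESeq2 did not call the gene in PRTN (adjusted p = 0.0915) or BUTN (adjusted p = 0.104), and the PRTN and BUTN calls were lost without either TN replicate (adjusted p from 0.0782 to 0.0946). The BUTN call was also lost without BUTN replicate 2 (adjusted p = 0.0713). Without TNBU replicate 1, which had 0 counts, HCAR2 was called up in TNBU (adjusted p = 5.2e-04), and without TNBU replicate 2, which held all 8 counts, its log2 fold change there was -0.09 (adjusted p = 0.954). It was called in TNPR without either TNBU replicate (adjusted p = 0.0231 and 0.0232). HCAR3 had 1 count in Ctrl replicate 2 and 1.51 in PRTN replicate 1 and was otherwise at 0. A long non-coding RNA lies on the other strand of HCAR2 and had at most 3 counts.

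The other receptors that bind fatty acids or hydroxycarboxylic acids were FFAR1 and FFAR4 (long-chain fatty acids), GPR42, HCAR1 (lactate), HCAR3, and the olfactory receptors OR51E1 and OR51E2, the latter of which binds SCFAs. Of these 7 genes, 3 were tested, and 1 was called up against TN in PRTN, 0 in TNPR, 1 in BUTN and 2 in TNBU. For TNPR, limma-voom, edgeR and DESeq2 all gave 0 calls, with 0 of the 3 genes at an unadjusted p under 0.05. The calls were FFAR1, which had 0 counts in Ctrl and TN and at most 6 elsewhere and so, like HCAR2, was tested only because of its SCFA counts, and FFAR4 in TNBU. FFAR4 had at most 1 count in each Ctrl and TN library and at most 9 elsewhere, so its SCFA counts admitted it too. These calls therefore do not support a difference by themselves. DESeq2 called none of the 3 genes in PRTN, BUTN or TNBU. There 2, 1 and 2 of the 3 genes had an unadjusted p under 0.05 with limma-voom, and edgeR called 1, 1 and 1. OR51E1 was at 0 in all 12 libraries, and OR51E2 had 1 count in each of 2 libraries.

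The sodium-coupled transporters, which recover lactate in the brush border, were at the floor. SLC5A8 (ENSG00000256870.2, chr12:101155493-101210238, minus strand) had a single count in TNPR replicate 2 and in each TNBU library, and 0 in the other 9 libraries. SLC5A12 (ENSG00000148942.14, chr11:26667020-26723427, minus strand) had a single count in each Ctrl library and in TN replicate 2, and 0 in the other 9. No library exceeded 3 counts of either gene, and no comparison was possible at this depth.

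The proton-coupled carriers were abundant. SLC16A1 (MCT1, ENSG00000155380.11, chr1:112911847-112957593, minus strand) had at least 8665 counts and SLC16A3 (MCT4, ENSG00000141526.16, chr17:82217934-82261129, plus strand) at least 9343 counts in every library. SLC16A7 (MCT2, ENSG00000118596.11, chr12:59596029-59789855, plus strand) had at least 641. Per kilobase of the canonical transcript, the level in TN was 149 CPM for SLC16A3, 90.9 for SLC16A1 and 2.12 for SLC16A7, beside 253 for BSG and 2.02 for EMB. With the union of all annotated exons as length, the level in TN was 41.8 CPM per kilobase for SLC16A3, 53.8 for SLC16A1 and 1.85 for SLC16A7, beside 112 for BSG and 1.62 for EMB. The order of SLC16A1 and SLC16A3 thus depended on the length used, while BSG was above both and SLC16A7 and EMB far below with either.

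The question put to each gene was whether TNF-α, or an SCFA added to it, moved its level. For TNF-α alone (TN against Ctrl), the calls in either direction numbered 0 of 7 by limma-voom, edgeR or DESeq2, beside 0.764% of all tested genes called up and 0.534% called down. At an unadjusted p under 0.05, only SLC16A1 was higher.

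Against TN, 2 of the 7 genes were called up in PRTN (BSG and HCAR2; background 23.9%) and 2 in BUTN (the same genes; background 23.1%). HCAR2 entered the 7 only through its SCFA counts, so that of these calls only the BSG call was free to go either way. In TNPR, 1 gene was called up (BSG; background 24.9%), as in TNBU (BSG; background 25.0%). None was called down by limma-voom, edgeR or DESeq2 in PRTN (background 16.7%), BUTN (14.8%), TNPR (16.9%) or TNBU (16.5%). At an unadjusted p under 0.05, 1, 2, 3 and 3 genes were lower in PRTN, BUTN, TNPR and TNBU, taken from EMB, SLC16A1 and SLC16A3. So many genes were called in these comparisons that the counts did not set the 7 genes apart from all tested genes. The 4 comparisons share the TN libraries and are therefore not independent of each other. Those of TNPR and TNBU also differ from TN in the time since TNF-α.

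BSG (ENSG00000172270.18, chr19:571277-583494, plus strand), the escort of MCT1 and MCT4, had 521 and 514 CPM in Ctrl and 459.7 and 527 CPM in TN. With propionate it reached 984 and 985 CPM (PRTN) or 851 and 851 CPM (TNPR), and with butyrate 963 and 959 CPM (BUTN) or 848 and 899 CPM (TNBU). All 8 SCFA libraries were far above the 4 others, and the ranges of Ctrl and TN overlapped. Against TN, BSG rose 2.0-fold in PRTN (log2 fold change 1.00, SE 0.06, adjusted p = 2.97e-08) and 1.95-fold in BUTN (0.97, SE 0.06, adjusted p = 5.39e-08). It rose 1.73-fold in TNPR (0.79, SE 0.06, adjusted p = 2.21e-07) and 1.77-fold in TNBU (0.83, SE 0.06, adjusted p = 1.76e-07). TNF-α alone gave a log2 fold change of -0.07 (SE 0.06, adjusted p = 0.620).

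The order of BSG levels was PRTN, BUTN, TNBU, TNPR, Ctrl and TN, and TNBU and TNPR overlapped, as did Ctrl and TN. PRTN and BUTN stood above TNPR and TNBU in every library. The test of the timing itself gave a log2 fold change of -0.21 in TNPR vs PRTN (95% interval -0.33 to -0.09, adjusted p = 0.198) and -0.14 in TNBU vs BUTN (-0.26 to -0.01, adjusted p = 0.296). These differences were below the fold threshold and did not pass the adjusted p. No propionate group was tested against a butyrate group, because the doses differed. The antisense gene BSG-AS1, on the opposite strand, had 17.2 to 71.5 counts, beside at least 12346 for BSG.

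**Figure D2:**
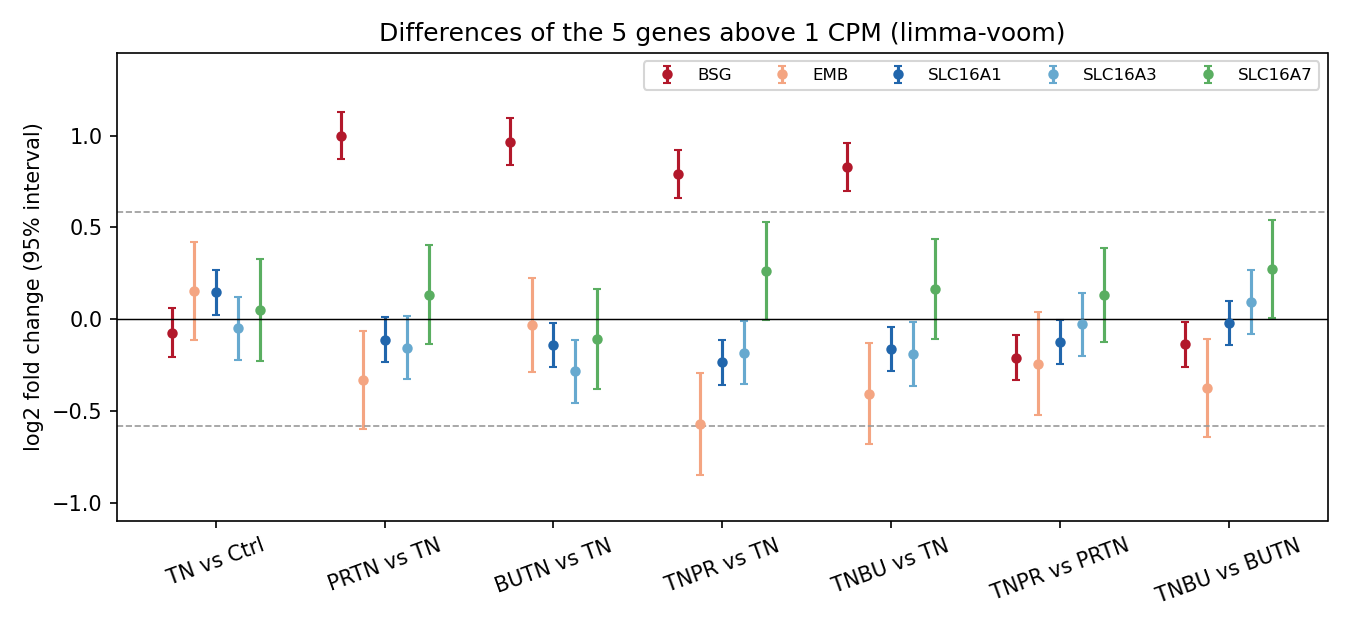
Log2 fold change (y axis) of the 5 genes above 1 CPM in each of the 7 comparisons (x axis), with 95% intervals from limma-voom and dashed lines at 1.5-fold in either direction. BSG lies at 0.79 to 1.00 in the 4 SCFA comparisons with TN and no other gene lies beyond the dashed lines.

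SLC16A1 had 306 and 311 CPM in Ctrl, 340.1 and 342 in TN, 312 and 319.7 in PRTN, and 303 and 315 in BUTN. It had 282 and 298 CPM in TNPR, and 318 and 292 in TNBU. With these TMM-scaled values, both TN libraries were above all 10 others. In the order TN, PRTN, BUTN, Ctrl, TNBU and TNPR, each of the last 5 groups overlapped with the group next to it. With library size alone, the TN libraries had 314 and 313 CPM, below both PRTN libraries at 319 and 327 CPM.

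SLC16A1 had a log2 fold change of 0.15 (SE 0.06, adjusted p = 0.198) in TN vs Ctrl. Against TN it was -0.11 in PRTN (adjusted p = 0.106), -0.14 in BUTN (adjusted p = 0.0451), -0.24 in TNPR (adjusted p = 0.00281) and -0.16 in TNBU (adjusted p = 0.0240), each with an SE of 0.06.

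These differences were under 1.5-fold. With library size alone in place of TMM factors, the median log2 fold change of all tested genes against TN shifted by 0.15 to 0.20, and SLC16A1 had 0.04 in PRTN, -0.06 in TNPR, 0.01 in BUTN and 0.03 in TNBU, none with an adjusted p under 0.05. The long non-coding SLC16A1-AS1 overlaps SLC16A1 on the opposite strand and had 339 to 505 counts, and whether the counting used strand is not given in the sources used here.

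SLC16A3, the carrier that exports lactate from glycolytic cells, had 403 and 393 CPM in Ctrl and 348 and 425 CPM in TN. Its level was 347 and 344 CPM in PRTN and 354 and 325 CPM in TNPR. In the butyrate groups it was 322 and 309 CPM (BUTN) and 344 and 330.4 CPM (TNBU). The TN replicates were the farthest apart, the Ctrl libraries lay between them, and both BUTN libraries were below all others. With library size alone, TN replicate 1 (322 CPM) lay below BUTN replicate 1 (329 CPM). The log2 fold change in TN vs Ctrl was -0.05 (SE 0.08, adjusted p = 0.816). Against TN it was -0.16 in PRTN (adjusted p = 0.115), -0.29 in BUTN (adjusted p = 0.00869), -0.18 in TNPR (adjusted p = 0.0667) and -0.19 in TNBU (adjusted p = 0.0575), each with an SE of 0.08.

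None of these differences reached 1.5-fold, and with library size alone as scaling the BUTN value was -0.13 (adjusted p = 0.160) and the TNBU value 0.0044. The protein-coding gene CSNK1D overlaps SLC16A3 on the opposite strand and had 4059 to 6147 counts, so that reads from the shared stretch may be assigned to either gene if strand was not used.

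SLC16A7, the high-affinity carrier of the family, had 23.0 and 25.9 CPM in Ctrl, 27.7 and 23.0 in TN, 28.8 and 26.6 in PRTN, and 22.5 and 24.2 in BUTN. It had 28.8 and 31.9 CPM in TNPR, and 32.0 and 25.0 in TNBU. Most groups overlapped, and with TMM factors only the TNPR libraries both lay above the TN libraries. With library size alone, all PRTN and TNBU libraries lay above them too. The log2 fold change against TN was 0.13 in PRTN (adjusted p = 0.382), -0.11 in BUTN (adjusted p = 0.494), 0.26 in TNPR (adjusted p = 0.0849) and 0.16 in TNBU (adjusted p = 0.282). With library size alone these values were 0.29 (adjusted p = 0.0644), 0.05 (adjusted p = 0.786), 0.44 (adjusted p = 0.00870) and 0.36 (adjusted p = 0.0262), still under 1.5-fold.

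EMB (ENSG00000170571.11, chr5:50396192-50443248, minus strand), the escort of MCT2, had 8.19 and 7.02 CPM in Ctrl, 9.09 and 7.87 in TN, and 8.51 and 8.06 in BUTN. It had 6.62 and 6.82 CPM in PRTN, 5.32 and 6.08 in TNPR, and 6.60 and 6.16 in TNBU. The libraries of PRTN, TNPR and TNBU all lay below those of Ctrl, TN and BUTN. Against TN, the log2 fold change was -0.57 in TNPR (SE 0.13, adjusted p = 0.00196), -0.41 in TNBU (SE 0.13, adjusted p = 0.0160), -0.33 in PRTN (SE 0.12, adjusted p = 0.0358) and -0.03 in BUTN (SE 0.12, adjusted p = 0.847).

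None of these EMB values reached 1.5-fold, and the TNPR value stood just inside that limit. It passed the limit without TN replicate 2 (-0.71), without TNPR replicate 2 (-0.72), without any 1 library of PRTN, BUTN or TNBU (-0.62 in each case), and with the filter on low counts removed (-0.59). It stayed inside the limit with library size alone (-0.40, adjusted p = 0.0183), where the PRTN and TNBU values were -0.17 (adjusted p = 0.254) and -0.21 (adjusted p = 0.187) and the BUTN value 0.12 (adjusted p = 0.405). Between the 2 orders of addition, TNBU vs BUTN gave -0.38 (95% interval -0.64 to -0.11, adjusted p = 0.196) and TNPR vs PRTN -0.24 (-0.52 to 0.04, adjusted p = 0.509).

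The timing comparisons had 0 of the 7 genes called by limma-voom, edgeR or DESeq2. In TNPR vs PRTN, the background was 0.0534% called up and 0.107% called down, and at an unadjusted p under 0.05 BSG and SLC16A1 were lower and 0 genes were higher. In TNBU vs BUTN, the background was 0.0945% up and 0.173% down, and at an unadjusted p under 0.05 SLC16A7 was higher and BSG and EMB were lower.

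Basigin and its carriers can be compared without any scaling by the ratio of their counts within a library. BSG had 1.35 to 1.70 counts per count of SLC16A1 in the 4 Ctrl and TN libraries, and 2.66 to 3.18 in the 8 SCFA libraries. Per count of SLC16A3, BSG had 1.24 to 1.32 counts in Ctrl and TN, and 2.41 to 3.10 in the SCFA groups. Neither ratio overlapped between the 4 libraries without SCFA and the 8 with it. The lowest SCFA value was in TNBU replicate 1 for SLC16A1 and in TNPR replicate 1 for SLC16A3. A ratio within a library shows unequal change of the 2 genes and does not say that either stayed constant.

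**Figure D3:**
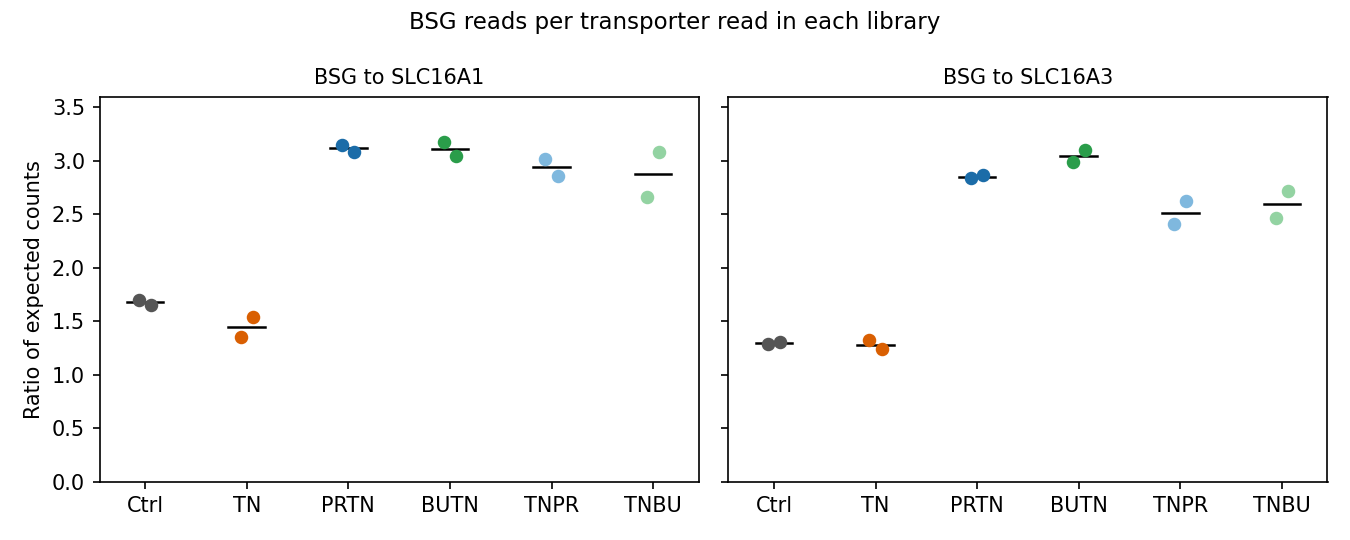
Expected counts of BSG divided by those of SLC16A1 (left) and SLC16A3 (right) in each library (points) with the group means (lines), on a linear axis from 0. The SCFA groups lie at 2.66 to 3.18 (left) and 2.41 to 3.10 (right), above Ctrl and TN at 1.35 to 1.70 and 1.24 to 1.32.

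The other SLC16 genes carry aromatic amino acids, creatine, lactate and other substrates, or cargo that is not established. Of these 11 genes, 10 were tested. Against TN, 6, 7, 6 and 6 were called up in PRTN, BUTN, TNPR and TNBU and 3, 1, 3 and 3 were called down, beside 23.9%, 23.1%, 24.9% and 25.0% up and 16.7%, 14.8%, 16.9% and 16.5% down over all tested genes. These counts became 6, 7, 6 and 7 up and 3, 1, 3 and 2 down with library size alone. DESeq2 called 4, 5, 6 and 6 up and 3, 1, 3 and 3 down. Their median difference from TN on the log2 scale was 1.17, 1.30, 1.35 and 1.37 in that order, beside 0.09, 0.08, 0.12 and 0.09 over all tested genes. SLC16A8 (MCT3), also a lactate carrier and named after its values were seen, was called up by limma-voom in all 4 SCFA groups. It had few counts, with 1 and 4 in TN, 12 and 7 in Ctrl, and at most 20 in any library.

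SLC16A10 (TAT1, a carrier of aromatic amino acids) was among the genes that rose most. It had 0.275 to 0.41 CPM in Ctrl and TN and 2.40 to 3.35 in the SCFA libraries. Its log2 fold change against TN was 2.91 in PRTN, 2.96 in TNPR, 2.59 in BUTN and 2.92 in TNBU (adjusted p from 1.88e-06 to 8.52e-06). The SCFA libraries did not overlap with the others.

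The genes that fell were SLC16A4, SLC16A5 and SLC16A9, named after their values were seen. SLC16A9, a carrier of carnitine, had 8.07 and 7.28 CPM in Ctrl, 12.2 and 12.3 in TN, 4.57 and 4.62 in PRTN, and 6.82 and 7.37 in BUTN. It had 4.53 and 3.97 CPM in TNPR, and 6.27 and 4.55 in TNBU. It was the only SLC16 gene called in TN vs Ctrl, with a log2 fold change of 0.67 (SE 0.13, adjusted p = 0.0121), and it fell against TN in all 4 SCFA groups, with -1.41 in PRTN, -1.52 in TNPR, -0.79 in BUTN and -1.20 in TNBU. SLC16A4 and SLC16A5 fell in PRTN (-0.79 and -0.86), TNPR (-1.09 and -1.11) and TNBU (-0.78 and -0.99). In BUTN they had -0.54 and -0.52, which is under 1.5-fold.

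**Figure D4:**
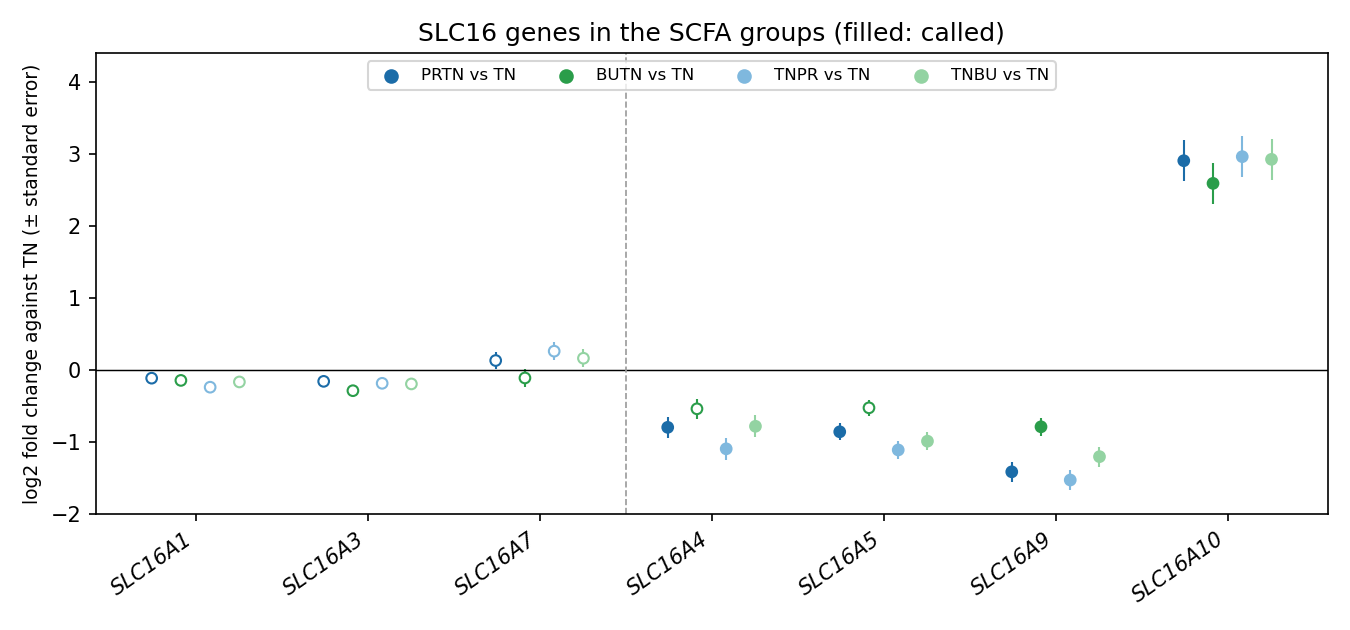
Log2 fold change against TN with its standard error for 7 SLC16 genes described in the text, coloured by SCFA group and filled where called. SLC16A1, SLC16A3 and SLC16A7 stand left of the dashed line. Of the 10 other SLC16 genes tested, 6, 7, 6 and 6 were called up in PRTN, BUTN, TNPR and TNBU. Only SLC16A10 of these is drawn. SLC16A1, SLC16A3 and SLC16A7 are open circles in every group. They lie between -0.29 and 0.26 (between -0.13 and 0.44 with library size alone as scaling), and SLC16A10 lies between 2.59 and 2.96.

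The proteins to which the receptors couple were measured beside them. Of 7 such genes (GNAI1, GNAI2, GNAI3, GNAQ, GNA11, ARRB1 and ARRB2), all tested, 4, 4, 3 and 3 were called up against TN in PRTN, BUTN, TNPR and TNBU, or 4 in each with library size alone, beside 23.9%, 23.1%, 24.9% and 25.0% of all tested genes. None was called down by limma-voom, edgeR or DESeq2. In the limma-voom fit, GNAQ was lower in each comparison at an adjusted p under 0.05 but under 1.5-fold. Their median log2 fold change was 0.81, 0.72, 0.52 and 0.41 in that order, beside 0.09, 0.08, 0.12 and 0.09 over all tested genes. ARRB2 (β-arrestin 2, which ends signaling of such receptors) had 18.3 to 21.1 CPM in Ctrl and TN and 69.3 to 78.2 in the SCFA libraries, with log2 fold changes of 1.97 in PRTN, 1.99 in BUTN and 2.0 in both TNPR and TNBU. GNAI1, an inhibitory G protein subunit, had 25.0 to 29.0 CPM in Ctrl and TN and 53.4 to 72.3 in the SCFA libraries, with 1.15, 0.96, 1.22 and 1.13. The SCFA libraries of both genes lay above all Ctrl and TN libraries.

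Of 6 genes that handle lactate and pyruvate, the main cargo of the MCTs, 4 were called up in each SCFA group against TN by limma-voom and edgeR. DESeq2 called 3, 3, 3 and 4 in PRTN, BUTN, TNPR and TNBU. The share called up over all tested genes was 23.9%, 23.1%, 24.9% and 25.0% in that order. None of the 6 was called down by limma-voom, edgeR or DESeq2. In the limma-voom fit, LDHA and LDHB were lower in each at an adjusted p under 0.05 but under 1.5-fold. The largest log2 fold changes were those of LDHD, a mitochondrial D-lactate dehydrogenase, with 0.179 to 0.645 CPM in Ctrl and TN and 2.35 to 4.38 in the SCFA libraries. Its log2 fold change was 3.51, 3.10, 3.80 and 3.40 in PRTN, BUTN, TNPR and TNBU. MPC2 and MPC1, which form the mitochondrial pyruvate carrier, had log2 fold changes of 1.00 and 0.86 in PRTN, 0.99 and 0.99 in TNPR, 0.64 and 0.59 in BUTN, and 0.80 and 0.86 in TNBU. LDHA and LDHB, the subunits of the main lactate dehydrogenase, were not called. No gene of the lists other than SLC16A9 was called in TN vs Ctrl, and none in the timing comparisons, by limma-voom, edgeR or DESeq2. At an unadjusted p under 0.05, 6 genes of these lists besides SLC16A9 had a difference in TN vs Ctrl, 2 in TNPR vs PRTN and 6 in TNBU vs BUTN.

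The genes whose TMM-scaled log2 CPM most resembled each gene over the 12 libraries were picked among 11759 other genes with at least 5 CPM. For BSG these were FSCN1 (Pearson r = 0.995), which encodes the actin-bundling protein fascin, and HES6 (r = 0.995), a transcriptional regulator. For SLC16A1 they were TTPAL (0.943) and TIFA (0.928), for SLC16A3 MAP3K11 (0.951) and FAAP100 (0.948), for SLC16A7 TTBK2 (0.888) and MPDZ (0.858), and for EMB RAD51D (0.945) and SGO2 (0.945). These are descriptions over 12 libraries that share 6 treatments, and the best of many candidates is high by selection.

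The line was checked against marker genes. Of 10 proximal tubule markers, 3 (GGT1, CUBN and SLC5A2) had at least 1 CPM in every library, the other 7 were below 1 CPM in at least 1 library, and SLC22A6 was at 0 in all 12. Their summed level was 184 to 228 CPM in Ctrl and TN and 74.3 to 95.8 in the SCFA groups. Most of it was GGT1, with 179 to 221 CPM and 59.9 to 74.0 CPM, while AQP1 ran the other way, with 0.359 to 0.721 CPM in Ctrl and TN and 5.98 to 15.1 CPM in the SCFA groups. ANPEP had 0 to 0.103 CPM and 0.991 to 2.51 CPM. The 5 epithelial markers, of which 4 had at least 1 CPM throughout, summed to 1116 to 1215 CPM and 1729 to 2318 CPM, most of it KRT8 and KRT18, while EPCAM had 55.1 to 58.1 CPM and 13.3 to 23.2 CPM. Markers of endothelium summed to 0.143 to 0.287 CPM in Ctrl and TN and 2.18 to 3.61 in the SCFA groups. Podocyte markers summed to 0 to 0.215 CPM in Ctrl and TN and 1.62 to 3.54 in the SCFA groups. Leukocyte markers summed to 26.5 to 52.6 CPM, nearly all of it CD68, with at most 5 counts of PTPRC. Among them, CD14 had 0.633 to 1.00 CPM in Ctrl and TN and 2.13 to 3.53 CPM in the SCFA groups. Apart from the leukocyte sum, these sums did not overlap between the libraries with and without SCFA, as was the case for BSG, and their part in its difference was not tested. In bulk RNA, fewer cells of a kind and less RNA per cell cannot be told apart.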

How the data were processed

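Total RNA of HK2 cells was made into stranded mRNA libraries by the authors, sequenced on an Illumina HiSeq, aligned to GRCh38 with STAR (2.6.1a in the submitters' processing notes) and counted with RSEM on GENCODE release 26. The authors deposited RSEM expected counts for every annotated gene, neither scaled nor filtered, and 18.0 to 20.1% of them per library were not whole. The strand setting of RSEM and the read length are not given in the sources used here. Each library is 1 deposited set of values and no replicates were pooled.

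The label of each library gave its group. Genes were kept where the geometric mean of the count plus 1, minus 1, was at least 1 over the 12 libraries. All 12 entered 1 model with a mean per group in limma 3.58.1 (voom, TMM factors from edgeR 4.0.16, R 4.3.3), with Benjamini-Hochberg adjustment over 24342 genes. A gene was called at over 1.5-fold and an adjusted p under 0.05. Levels are TMM-scaled CPM, and per kilobase only between genes. Likeness was Pearson's r of log2(CPM + 0.5). The 3-count floor and all intervals cover counting error or replicate spread only, with 2 libraries per group and 27269986 to 33851130 counts per library.

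The 10 genes are all named, and of 4 lists of related genes the 2 called genes with the largest change per comparison with TN, except that some items are not reported here. The genes and lists were chosen with earlier results of these data known. Alternatives were edgeR's quasi-likelihood test and DESeq2 1.42.0 on rounded counts, relative log expression factors, library size alone, dropping the filter but for genes without any count of 1 (37730 genes kept), the replicate number as a block, and leaving out each library. Union exon length was added after seeing the data. The steps were tested on simulated counts. Replicates were compared by a chi-square per gene of 3.17 to 18.1, so no library was a copy. Positions and sequences come from GENCODE release 44 and the GRCh38 reference. Correlations between same-numbered deviations of the groups ran from -0.0791 to 0.240 over 15 pairs of groups, with 1 over 0.1, so numbers were not taken as pairs.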

Additional observations from a re-analysis of the deposited data

How the results depend on the processing

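Of 882 values of the tested genes under the alternatives, 863 kept their side of the threshold, 12 passed it only under the alternative, 7 lost it, and no called gene changed direction. The BSG calls held in all 18 alternatives of each SCFA comparison, with log2 fold changes of 0.66 to 1.16. DESeq2 called 1 gene up in PRTN and 1 in BUTN, since HCAR2 was lost. Without the filter, 1 gene (EMB) was called down in TNPR vs TN, and 23 of all genes were called up in TNPR vs PRTN. edgeR called 15 down there. Leaving out 1 library gave 1 to 2 genes up in each SCFA comparison with TN and 0 to 1 down in TNPR, through HCAR2 and EMB as given above. Over all genes it gave 119 to 217 up and 50 to 159 down in TN vs Ctrl (fewest up without Ctrl replicate 1 and fewest down without TN replicate 1), 5 to 29 up and 3 to 47 down in TNPR vs PRTN (fewest without PRTN replicate 1, most without TNPR replicate 1), and 5 to 144 up and 12 to 173 down in TNBU vs BUTN (fewest up without BUTN replicate 2 and fewest down without BUTN replicate 1, most without TNBU replicate 1). The cause was not tested. With the replicate block, 2, 2, 1 and 1 genes were called up in PRTN, BUTN, TNPR and TNBU, and 5840, 5615, 6110 and 6089 of all genes, so it changed none of the counts for the 7 genes. Where the lone library of a group remained, it was assumed to vary like the other groups. Depth limits the statements on FFAR2, FFAR3, HCAR2, SLC5A8 and SLC5A12.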
